A study of Mus musculus with 9 samples.

Results

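Libraries labelled as basal cells of the mouse sebaceous gland at postnatal day 10 (P10) were compared with those at postnatal day 4 (P4), across 14185 genes. These are all gene symbols with at least 10 counts in at least 3 of the 6 libraries of both ages, and make up 56.8% of the 24972 symbols in the files. The 6 libraries, 3 at each age, belong to a series of 9. Both groups were C57BL/6 mice that carried Lrig1CreERT2xRosa26Confetti, in which the Lrig1 locus drives an inducible Cre recombinase in stem cells of the upper hair follicle and a multicolour reporter sits at Rosa26. The labels give no treatment of the mice and no sex. The basal cells came from fresh frozen tissue by laser capture, in which chosen cells are cut out under a microscope, and total RNA was made into libraries with a stranded kit for very small inputs. By their titles the P4 libraries are 2, 3 and 4, while the P10 libraries are 1, 2 and 3. The labels do not say how many mice, or which, stand behind a library. The p-values therefore measure only the spread between these libraries, which may be technical, and they are too small if libraries share a mouse.

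The sebaceous gland buds from the upper hair follicle around birth and grows by division of basal cells that line its edge. Basal cells that leave the edge become sebocytes, which fill with lipid droplets under the control of regulators such as Pparg and finally burst to release sebum, a mix of triglycerides, wax esters and cholesterol esters. Lrig1 marks the upper follicle stem cells from which the gland arises. The series asks how gland progenitors differ between morphogenesis and steady state, and the comparison here sets its earliest age against the next.

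The libraries held between 13451174 and 20595681 counts, and differed more in the number of genes seen. P4 libraries 3 and 4 had no count for 2417 and 1572 of the tested genes, against 154 in P4 library 2 and 16, 34 and 300 in P10 libraries 1, 2 and 3. P4 library 2 had a Spearman correlation of 0.905 to 0.951 with the P10 libraries and of 0.846 and 0.896 with the other P4 libraries. The first principal component, with 49.4% of the variance, set P4 library 3 apart, and the second, with 26%, set P4 library 4 apart. Results that rest on those libraries are given below with P4 library 2 as the only P4 library as well. Sex-linked transcripts differed within each age. The Y-linked gene Ddx3y had 74.9, 114 and 0.0678 CPM at P4 and 75.6, 0.162 and 66.4 CPM at P10, so it was near 0 in P4 library 4 and P10 library 2 and present in the other 4 libraries. The inactive X transcript was high in the libraries that lacked it, and was also seen in P10 library 3.

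Expression is given below as CPM, the counts of a gene relative to 1e+06 counts of its library after TMM scaling (trimmed mean of M values), always in the order P4 libraries 2, 3 and 4 and then P10 libraries 1, 2 and 3. Fold changes are log2 values of P10 over P4 with their standard error (SE), from edgeR's quasi-likelihood test. By that test 0 of the 14185 genes (0%) passed a Benjamini-Hochberg adjusted p of 0.05, and the smallest adjusted p was 0.213. At an unadjusted p under 0.05 there were 1085 genes, of which 488 were higher at P10 (3.44% of all tested) and 597 lower (4.21%). DESeq2 called 144 genes on the same counts, 66 higher and 78 lower, and limma-voom called 0. All 3 P10 libraries lay above all 3 P4 libraries for 1521 genes (10.7%) and below them for 954 genes (6.73%), which is called separate ranges below. Fold changes were positive for 53% and negative for 47% of genes, with a median log2 fold change of 0.05. Against library totals alone this median was 0.125, so small list medians depend on the scaling. The common biological coefficient of variation, the spread of replicates beyond counting error, was 73.9%. A range in brackets after a list median gives its lowest and highest value when 1 library is left out. A gene seen at one age alone could pass the filter through that age only, and 50 tested genes had no count at all in one age. No statement below of a higher or lower level passed the edgeR test over all genes, and the counts are descriptions to be read against these percentages. The gene lists were chosen with earlier results of these data known, so an excess over these percentages is no independent support. In bulk samples such as these, fewer cells of a type and less RNA per cell cannot be told apart.

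Among the 10 genes with the smallest p and separate ranges in the higher direction stood genes of a pump, of lipid enzymes and of secreted proteins. Atp1b1, the beta-1 subunit of the sodium pump (chr1:164437099-164458355), led with 28.8, 27.3 and 26.9 CPM at P4 and 153, 103 and 141 CPM at P10. The P4 libraries were nearly equal and the P10 libraries all several times higher (log2 fold change 2.26 ± 0.24 (SE), edgeR adjusted p = 0.213). Plb1, a phospholipase (chr5:32232691-32364356), had 4.26, 9.04 and 6.91 CPM at P4 and 118, 111 and 47.7 CPM at P10. Each P10 library was several times the highest P4 library, with P10 library 3 the lowest of its age (3.78 ± 0.47 (SE), adjusted p = 0.3204). Alox12e, an epidermal lipoxygenase that oxidises fatty acids, had 3.96, 12.8 and 3.32 CPM at P4 and 44.5, 91.8 and 179.8 CPM at P10, with the P10 libraries spread widely. Clu, the secreted chaperone clusterin, had 84.3, 20.9 and 26.96 CPM at P4 and 413, 457 and 498 CPM at P10. The P10 libraries were close together, while P4 library 2 stood above the other P4 libraries. Klk10, a kallikrein protease, had 45.1, 22.9 and 20.4 CPM at P4 and 137, 138 and 266 CPM at P10. Cst6, the cysteine protease inhibitor cystatin M/E of the follicle and gland duct, had 89.9, 181 and 248 CPM at P4 and 617, 543 and 977 CPM at P10 without overlap.

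The remaining higher genes were of varied function. Nlrp10, a cytoplasmic sensor protein of the epidermis, had 4.81, 7.78 and 8.74 CPM at P4 and 36.3, 34.6 and 32.2 CPM at P10 and stood tight at both ages. Slc22a23, a member of the organic ion transporter family, had 37.9, 19.5 and 28.3 CPM at P4 and 85.9, 109 and 80.95 CPM at P10. Cdh6, a cadherin of cell adhesion, had 25.4, 38.4 and 39.2 CPM at P4 and 80.5, 119 and 88.1 CPM at P10. In all 3 of these the ages were separate, with log2 fold changes of 2.27, 1.69 and 1.48. Hamp2, a paralog of the iron hormone hepcidin (chr7:30922372-30924181), had no count in any P4 library and 10.7, 7.38 and 15.6 CPM at P10. Against a floor of 3 counts over the P4 libraries its pooled level at P10 was 159.7-fold higher. That floor allows for counting error only, not for the spread between libraries. Reads of Hamp2 and its close copy Hamp could be split by the counting, so its identity is uncertain.

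**Figure D1:**
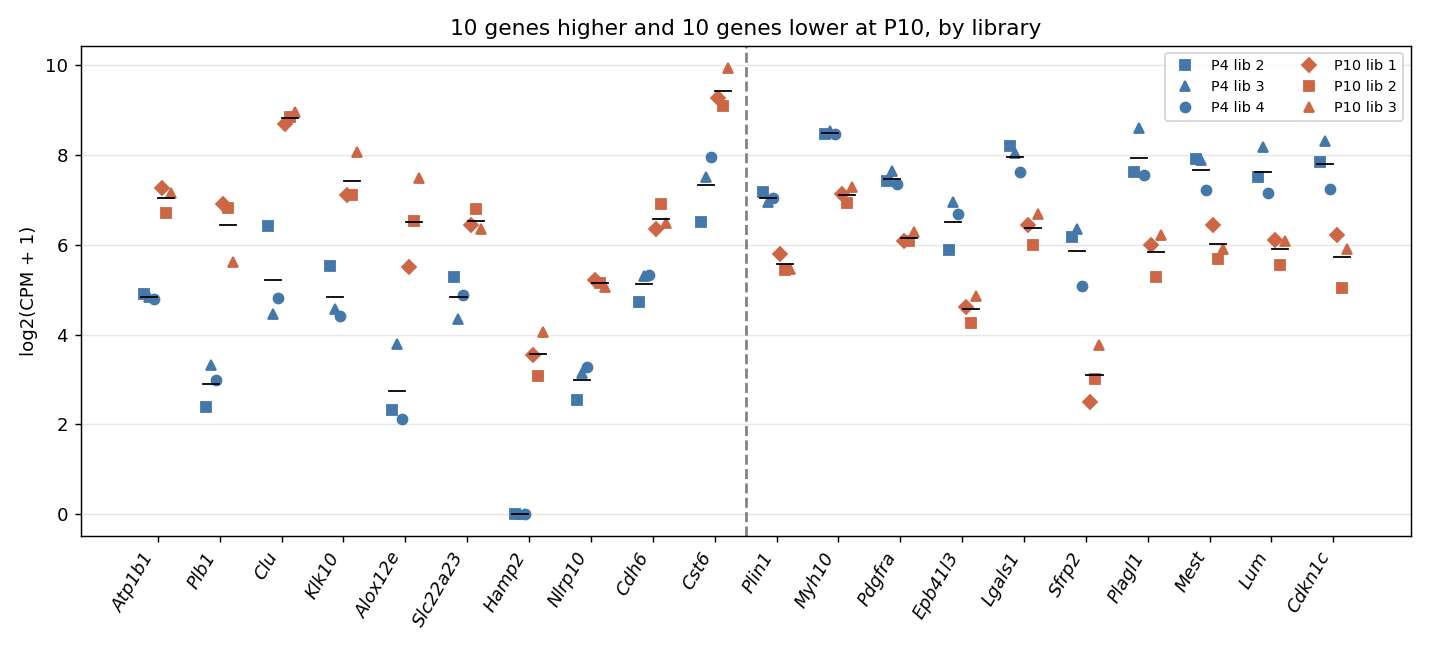
Points give log2(CPM + 1) of each library, blue for P4 and orange for P10, for the 10 genes of smallest p in each direction; black bars are the mean of the log values of an age. In all 20 genes the ages do not overlap, which the choice of genes required, and Hamp2 sits at 0 in the 3 P4 libraries.

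The 10 lower genes were lipid droplet, cytoskeleton, stromal and imprinted genes. Plin1, which coats lipid droplets in fat cells and sebocytes (chr7:79721164-79732904), had 143, 123 and 130.4 CPM at P4 and 54.8, 42.7 and 43.1 CPM at P10. Its libraries were within a narrow band at each age, and the log2 fold change was -1.49 ± 0.22 (SE) (edgeR adjusted p = 0.536). Myh10, the heavy chain of non-muscle myosin IIB (chr11:68691915-68816626), had 356, 373 and 355 CPM at P4 and 139, 122 and 154 CPM at P10, again with little spread within an age (-1.38 ± 0.21 (SE)). Pdgfra, the growth factor receptor that marks fibroblasts, had 170.2, 199 and 163 CPM at P4 and 66.7, 66.5 and 77.2 CPM at P10. Lum, the collagen-binding proteoglycan lumican, had 182, 291 and 142 CPM at P4 and 67.4, 45.6 and 66.5 CPM at P10. Sfrp2, a secreted Wnt modulator of the dermis, had 70.7, 80.8 and 32.99 CPM at P4 and 4.68, 7.05 and 12.7 CPM at P10 and the most negative log2 fold change of the 10, at -2.92 ± 0.51 (SE). Lgals1, the lectin galectin-1, had 292, 265 and 196 CPM at P4 and 86.5, 63.01 and 102 CPM at P10, and Epb41l3, a membrane skeleton protein, 58.1, 123 and 102 CPM at P4 and 23.5, 18.2 and 27.9 CPM at P10. In both, every P10 library was below every P4 library. The other members, Plagl1, Mest and Cdkn1c, are imprinted genes and are described with their group.

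Basal keratinocyte genes, which define the cells named in the labels, were present in all 6 libraries and did not lean clearly to either age. Krt5, the basal keratin, had 1747, 1650.4 and 1528 CPM at P4 and 1691, 2054 and 2438 CPM at P10, and its partner Krt14 had 1067, 1831 and 2479 CPM at P4 and 1292, 1497 and 1881 CPM at P10. The ranges of both overlapped. Lrig1 had 163, 128 and 159.7 CPM at P4 and 136, 121 and 214 CPM at P10 and also overlapped (0.061 ± 0.27 (SE)). Trp63, the master regulator of stratified epithelium, had 238, 297 and 251 CPM at P4 and 299, 366 and 380.2 CPM at P10, with every P10 library above every P4 library though narrowly. Of the 18 tested members of the list, 8 had positive and 10 negative fold changes. An unadjusted p under 0.05 was held by 1 higher (5.56%, against 3.44% of all genes) and 2 lower (11.1%, against 4.21%). In each direction 2 had separate ranges (11.1%, against 10.7% of all genes higher and 6.73% lower). The median was -0.13 (-0.328 without P10 library 3 to 0.109 without P4 library 4), against 0.05 over all genes, and 0.24 with P4 library 2 alone at P4.

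Members of smallest p in this list were mostly adhesion genes. Col17a1, the transmembrane collagen of the hemidesmosome, had 208, 225 and 256 CPM at P4 and 301, 367 and 686 CPM at P10, higher at P10 without overlap (0.97 ± 0.33 (SE), unadjusted p = 0.0197). Integrins of the list did not share this. Itga6, the alpha-6 chain of the hemidesmosome integrin, had 167, 300.4 and 187 CPM at P4 and 144, 116 and 151 CPM at P10, and Itgb1, the beta-1 chain of other integrins, had 392, 375 and 288 CPM at P4 and 274, 219.9 and 217 CPM at P10, and for both all P10 libraries were below all P4 libraries (-0.67 ± 0.28 (SE) and -0.57 ± 0.23 (SE)). Itgb4, the beta-4 chain that pairs with alpha-6 in the hemidesmosome, overlapped with 89.2, 164 and 116 CPM at P4 and 92.2, 111 and 139 CPM at P10 (-0.11 ± 0.29 (SE)), and was picked with its values known. Krt16, a keratin of activated epidermis, had 35.5, 8.88 and 36.4 CPM at P4 and 36.6, 144 and 31.2 CPM at P10, with P10 library 2 alone high. Krt15, a keratin of bulge and basal cells, ranged from 246 to 857 CPM within P10, a spread wider than that of P4. Itga6 and Itgb1 are also carried by stromal and vessel cells, whose markers were lower at P10 as given below, and the part of those cells in the integrin values was not tested.

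Genes of the upper follicle and the gland duct had a median near that of all genes. Of 14 tested members 9 were positive, and 4 had an unadjusted p under 0.05, all of them higher (28.6%, against 3.44% of all genes). Separate ranges were held by 3, all higher (21.4%, against 10.7%). The median was 0.13 (0.013 without P4 library 3 to 0.534 without P4 library 4). Cst6 is described above. Plet1, a surface protein of the upper follicle, had 22.4, 11.2 and 45.7 CPM at P4 and 74.4, 53.96 and 112 CPM at P10, separate between the ages (1.60 ± 0.52 (SE)). Sox9, a transcription factor of follicle stem cells, had 259, 144 and 148 CPM at P4 and 259, 331 and 399 CPM at P10, where P4 library 2 reached the lowest P10 library. The duct keratin Krt79 went against this, with 548, 1624 and 2286 CPM at P4 and 497, 377 and 994 CPM at P10, as did Fst, the activin antagonist follistatin, with 42.1, 79.04 and 159 CPM at P4 and 36.4, 39.4 and 66.1 CPM at P10. In both, P4 libraries 3 and 4 were the highest and P4 library 2 lay within the P10 range. Prdm1, the repressor Blimp1 reported in the gland, had 103, 23.6 and 193 CPM at P4 and 77.6, 164 and 83.5 CPM at P10, and Gata6, a regulator of the duct, 8.82, 11.9 and 28.9 CPM at P4 and 7.69, 7.59 and 14.2 CPM at P10. Their P4 libraries differed by more than the ages did.

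Sebocyte genes were lower at P10 in 23 of 24 tested members, while the P4 libraries themselves were strongly graded. Of the 24, 11 had an unadjusted p under 0.05, all lower (45.8%, against 4.21% of all genes), 7 had separate ranges, all lower (29.2%, against 6.73%), and the median was -0.97 against 0.05. Pparg, the nuclear receptor that drives sebocyte differentiation, had 29.9, 85.2 and 159 CPM at P4 and 20.8, 11.96 and 24.3 CPM at P10. All P10 libraries were below all P4 libraries, yet P4 library 2 stood close to the P10 range and P4 library 4 at several times P4 library 2 (-2.26 ± 0.59 (SE)). Elovl3, an elongase for very long chain fatty acids, had 67.3, 169 and 365 CPM at P4 and 28.1, 26.2 and 31.6 CPM at P10, nearly flat at P10 and graded at P4 (-2.80 ± 0.56 (SE)). Scd1, the desaturase that is among the most abundant gland transcripts, had 1582, 4325 and 8601 CPM at P4 and 1956, 833 and 2011 CPM at P10, and here P4 library 2 lay inside the P10 range.

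Most genes that assemble and store sebum lipid were graded within P4 in the same way. Agpat2, which makes the triglyceride precursor phosphatidic acid, had 47.6, 36.8 and 70.9 CPM at P4 and 19.2, 14.3 and 17.4 CPM at P10, lower at P10 without overlap, with P4 library 3 the lowest of its age (-1.61 ± 0.35 (SE)). Plin2, the main droplet coat protein of young sebocytes, had 140.2, 271 and 386 CPM at P4 and 97.1, 58.6 and 80.1 CPM at P10, also without overlap (-1.76 ± 0.39 (SE)). Soat1, which esterifies cholesterol, had 175, 692 and 1706 CPM at P4 and 195, 181 and 226 CPM at P10, with P4 library 2 just below the P10 libraries. Awat1 makes wax esters and had 44.2, 127 and 312 CPM at P4 and 53.1, 17.2 and 68.6 CPM at P10. Far2 supplies their alcohols and had 275, 577 and 1595 CPM at P4 and 386, 117 and 328 CPM at P10. In both, P4 library 2 fell between P10 libraries. Soat1, Awat1 and Far2 were chosen after their values were seen. Cebpb, a transcription factor of fat cell and sebocyte differentiation, was the sole positive member at 0.070 ± 0.29 (SE), with 181, 184 and 319 CPM at P4 and 201, 266 and 252 CPM at P10. Members of the sebocyte list together made up 0.420, 0.859 and 1.68% of counts in the P4 libraries and 0.526, 0.281 and 0.518% in the P10 libraries. With P4 library 2 alone at P4 the median of the list was 0.03 instead of -0.97, and Scd1 and Pparg were at 0.017 and -0.66 instead of -1.60 and -2.26.

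**Figure D2:**
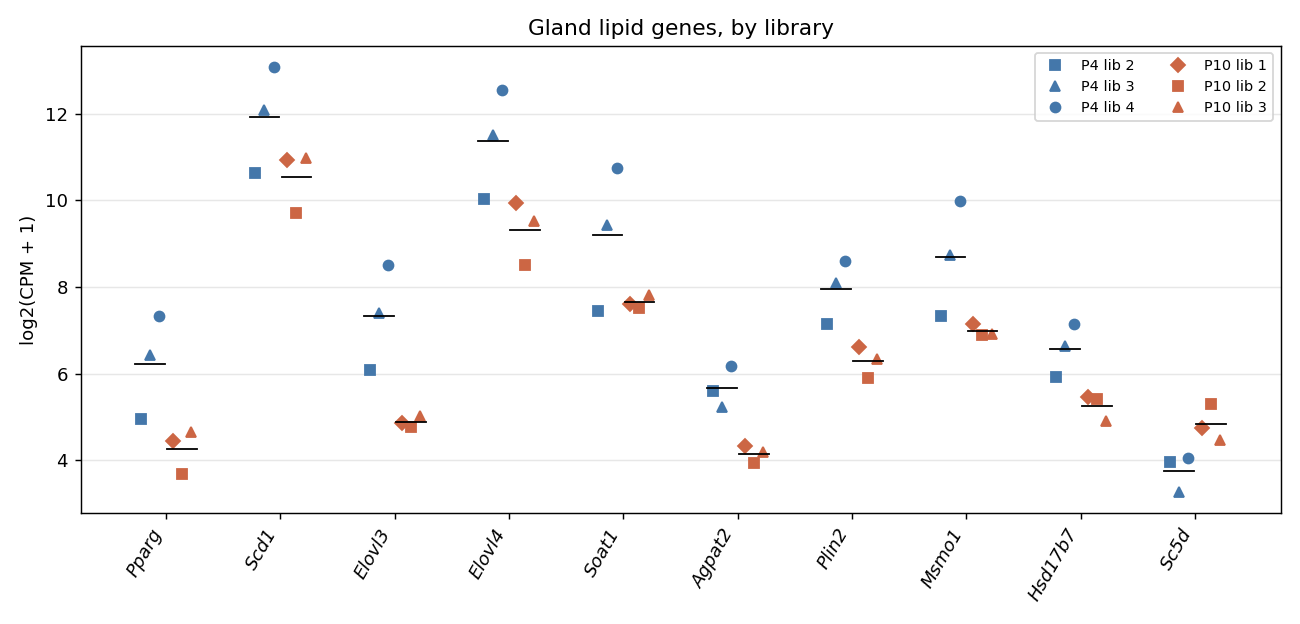
Points give log2(CPM + 1) of 10 gland lipid genes in each library, blue for P4 and orange for P10, with the mean of the log values of an age as a black bar. P4 library 2 sits at or near the P10 points for Scd1 and Soat1, P4 library 4 is the highest library for 9 of the 10 genes, and Sc5d is the one gene with all P10 points above P4.

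Fatty acid synthesis genes had mostly lower values at P10. Of 22 tested members 17 were negative with a median of -0.63 (-0.925 without P4 library 2 to -0.259 without P4 library 4). An unadjusted p under 0.05 was held by 5 lower (22.7%, against 4.21% of all genes) and 2 higher (9.09%, against 3.44%). Separate ranges were held by 4 lower (18.2%, against 6.73%) and 2 higher (9.09%, against 10.7%). The elongases Elovl4 and Elovl7 were on the lower side. Elovl4, which makes the longest chains of the skin, had 1041, 2926 and 5997 CPM at P4 and 982, 364 and 734 CPM at P10, and Elovl7 had 122, 230.0 and 387 CPM at P4 and 118, 74.96 and 99.4 CPM at P10. P10 stayed below P4 for both, by a small margin from P4 library 2 (-2.26 ± 0.65 (SE) and -1.34 ± 0.41 (SE)). The positive members of smallest p were Fads2 and Fads3. Fads2, the delta-6 desaturase that in human sebocytes makes sapienic acid, had 6.63, 3.93 and 2.51 CPM at P4 and 15.6, 17.1 and 22.2 CPM at P10, and Fads3 had 116, 77.00 and 46.9 CPM at P4 and 124, 174 and 139.8 CPM at P10, with every P10 library above every P4 library (2.07 ± 0.65 (SE) and 0.87 ± 0.34 (SE)). The related desaturase Fads1 overlapped at -0.060 ± 0.36 (SE), and was picked with its values known. The central enzymes Acaca, which makes malonyl-CoA, and Fasn, fatty acid synthase, had log2 fold changes of -0.31 ± 0.38 (SE) and -0.61 ± 0.31 (SE) with overlapping ranges. Both were picked with their values known. The median was 0.04 with P4 library 2 alone at P4.

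Cholesterol synthesis runs from acetyl-CoA through mevalonate, squalene and lanosterol to cholesterol, and most members leaned lower at P10. Of 21 tested members 17 were negative with a median of -0.61. An unadjusted p under 0.05 was held by 4 lower (19%, against 4.21% of all genes) and 1 higher (4.76%, against 3.44%). Separate ranges were held by 4 lower (19%, against 6.73%) and 1 higher (4.76%, against 10.7%). The early mevalonate enzyme Hmgcs1 had a log2 fold change of -0.34 ± 0.38 (SE) and overlapped. Members with separate ranges included enzymes of the late sterol steps. Msmo1, which removes methyl groups from lanosterol products, had 161, 424 and 1013 CPM at P4 and 142, 118 and 119 CPM at P10, flat at P10 and graded at P4 (-2.08 ± 0.58 (SE)). Hsd17b7, the ketoreductase of the same step, had 60.2, 98.1 and 139.8 CPM at P4 and 42.9, 41.6 and 28.8 CPM at P10 (-1.40 ± 0.35 (SE)). Sc5d, the desaturase just before the final steps, was the exception with 14.7, 8.72 and 15.5 CPM at P4 and 25.96, 38.1 and 21.3 CPM at P10, all P10 libraries above P4 (1.13 ± 0.44 (SE)). Srebf2, the regulator of the pathway, had 172, 106 and 116 CPM at P4 and 141, 191 and 142 CPM at P10 and overlapped. Hmgcs1 and Msmo1 were chosen after their values were seen. P4 library 4 stood apart: the list took 0.198, 0.194 and 0.501% of counts in the P4 libraries and 0.224, 0.192 and 0.221% in the P10 libraries. Without P4 library 4 the median of the list was 0.205, and with P4 library 2 alone at P4 it was 0.07.

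The promoters of these genes share a short element, shown here for 2 lower genes and the higher gene of the group. The windows run from 250 bases before to 50 after the start site on the gene's strand, from RefSeq for GRCm38.p6, and capitals mark each CCAAT, or ATTGG where it lies on the other strand.
Msmo1, chr8:64733529-64733828, minus strand: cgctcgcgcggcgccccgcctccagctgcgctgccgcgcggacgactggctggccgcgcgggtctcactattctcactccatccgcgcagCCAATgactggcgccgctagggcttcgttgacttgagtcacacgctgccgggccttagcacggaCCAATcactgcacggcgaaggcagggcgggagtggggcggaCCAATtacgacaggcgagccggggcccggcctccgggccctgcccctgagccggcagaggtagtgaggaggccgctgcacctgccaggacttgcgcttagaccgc
Hsd17b7, chr1:169969156-169969455, minus strand: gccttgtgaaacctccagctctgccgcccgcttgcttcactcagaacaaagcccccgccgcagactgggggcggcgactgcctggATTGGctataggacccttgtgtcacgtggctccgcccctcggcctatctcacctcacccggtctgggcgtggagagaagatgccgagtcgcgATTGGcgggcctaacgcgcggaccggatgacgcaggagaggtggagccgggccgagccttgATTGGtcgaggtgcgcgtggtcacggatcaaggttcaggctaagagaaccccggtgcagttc
Sc5d, chr9:42264251-42264550, minus strand: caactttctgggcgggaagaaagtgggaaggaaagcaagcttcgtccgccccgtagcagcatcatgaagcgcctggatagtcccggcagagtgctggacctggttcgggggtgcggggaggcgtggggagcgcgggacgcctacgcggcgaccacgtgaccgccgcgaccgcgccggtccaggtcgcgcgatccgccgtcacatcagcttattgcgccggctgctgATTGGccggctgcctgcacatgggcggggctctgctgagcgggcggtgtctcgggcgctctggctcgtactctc
CCAAT is the letter string bound by the factor NF-Y. It was searched on both strands and overlaps no other string searched. Msmo1 and Hsd17b7 each held 3 matches and Sc5d held 1, which starts 24 bases before the start site. At least 1 match was held by 15 of 15 cholesterol synthesis genes with a window, by 16 of 20 fatty acid synthesis genes (80%), by 7 of 14 sebocyte genes (50%) and by 42.4% of all 10974 tested genes with a window. It was in 37.41% of all 32851 windows, where a gene can have several. The match describes these letters only. TCACNCCAC, a string like the sterol response element, was found for 1 of the 15 cholesterol genes and in 1.431% of tested genes with a window.

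Fatty acid oxidation genes leaned the same way with 1 member apart. Of 21 tested members 16 were negative with a median of -0.38 (-0.548 without P4 library 2 to -0.127 without P4 library 4). An unadjusted p under 0.05 was held by 4 lower (19%, against 4.21% of all genes) and 1 higher (4.76%, against 3.44%). Separate ranges were held by 6 lower (28.6%, against 6.73%) and 1 higher (4.76%, against 10.7%). Acadm, the medium chain acyl-CoA dehydrogenase, had 119, 186 and 124 CPM at P4 and 75.8, 54.9 and 57.4 CPM at P10 (-1.19 ± 0.27 (SE)). Acadl, the long chain enzyme, had 176, 250.4 and 153 CPM at P4 and 134, 82.4 and 98.2 CPM at P10. For both, P10 was below P4 in every library, P4 library 2 included. Cpt1a, which admits fatty acids to mitochondria and sets the rate of oxidation, had 94.4, 49.6 and 52.2 CPM at P4 and 131, 137 and 141 CPM at P10, every P10 library above P4 and the P10 libraries close together (1.06 ± 0.29 (SE), unadjusted p = 0.00677). The second positive member by p was Echs1, an enoyl-CoA hydratase, at 0.26 ± 0.32 (SE). With P4 library 2 alone at P4 the median was -0.19.

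Subunits of the sodium pump leaned higher beside Atp1b1. The pump needs an alpha and a beta subunit, and FXYD proteins tune it. Fxyd3, one of the FXYD proteins, had 24.8, 9.19 and 10.5 CPM at P4 and 29.3, 33.3 and 33.9 CPM at P10, higher at P10 in every library, and was chosen after its values were seen. The members known from muscle and nerve did not follow. Atp1b2, the beta-2 subunit, had 45.4, 118 and 37.5 CPM at P4 and 62.4, 7.54 and 46.6 CPM at P10, and Fxyd1 had 23.1, 35.98 and 22.4 CPM at P4 and 33.01, 6.25 and 16.98 CPM at P10, both lowest in P10 library 2, which also had the smallest share of muscle transcripts. Of 12 tested members 9 were positive, 4 had an unadjusted p under 0.05, all higher (33.3%, against 3.44%), 5 had separate ranges, all higher (41.7%, against 10.7%), and the median was 0.65. With P4 library 2 alone at P4 it was 0.325.

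Imprinted and fetal growth genes, most of which are expressed from a single parental copy and act in early growth, had mostly lower values at P10. Of 19 tested members 16 were negative with a median of -1.52 against 0.05 over all genes. Of these 19, 6 had an unadjusted p under 0.05, all lower (31.6%, against 4.21%), and 8 had separate ranges, all lower (42.1%, against 6.73%). The list was chosen with earlier results of these data known, and its members Plagl1, Mest and Cdkn1c are also among the 10 lower genes above. Plagl1, a transcription factor that regulates other imprinted genes (chr10:13090832-13131694), had 197, 388 and 186 CPM at P4 and 62.6, 38.1 and 73.1 CPM at P10 (-2.15 ± 0.38 (SE)). Mest, a protein related to hydrolases (chr6:30733506-30748466), had 238, 235 and 148 CPM at P4 and 85.2, 50.1 and 59.4 CPM at P10 (-1.67 ± 0.30 (SE)). Its chromosomal neighbour Cpa4, a carboxypeptidase, had 155, 242 and 191 CPM at P4 and 87.8, 92.3 and 95.2 CPM at P10, tight at P10 (-1.09 ± 0.23 (SE)). Cdkn1c, an inhibitor of cell division, had 228, 316 and 149 CPM at P4 and 73.8, 31.7 and 59.2 CPM at P10 (-2.07 ± 0.40 (SE)). In each of these 4 genes P4 library 2 stood with the other P4 libraries and well above P10, and with P4 library 2 alone at P4 the median of the list was -1.38. In that fit Plagl1 was at -1.77 and Mest at -1.88. Peg3, a zinc finger gene, had 982, 1450.4 and 822 CPM at P4 and 485, 188 and 461 CPM at P10, and Peg10, a domesticated retroelement gene, was at -3.01 ± 0.65 (SE). Both had separate ranges and were picked with their values known.

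The growth factor Igf2 and the neighbouring non-coding RNA H19 had their lowest value in the library with the least muscle RNA. Igf2 had 1939.8, 2073 and 1023 CPM at P4 and 1038, 86.6 and 559 CPM at P10, and H19 had 6335, 10020.0 and 4149 CPM at P4 and 4512, 471 and 1967 CPM at P10. P4 library 4 was at the level of P10 library 1 in both, and P10 library 2 was lowest. The skeletal muscle list took 4.06, 7.73 and 2.60% of counts in the P4 libraries and 5.35, 0.360 and 2.37% in the P10 libraries, so P10 library 2 was lowest there as well and P4 library 3 highest. The part of muscle RNA in the Igf2 and H19 values was not tested. Nnat and Sgce, also imprinted, were the positive members of smallest p, at 1.25 ± 1.01 (SE) and 0.072 ± 1.52 (SE), with overlapping ranges.

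**Figure D3:**
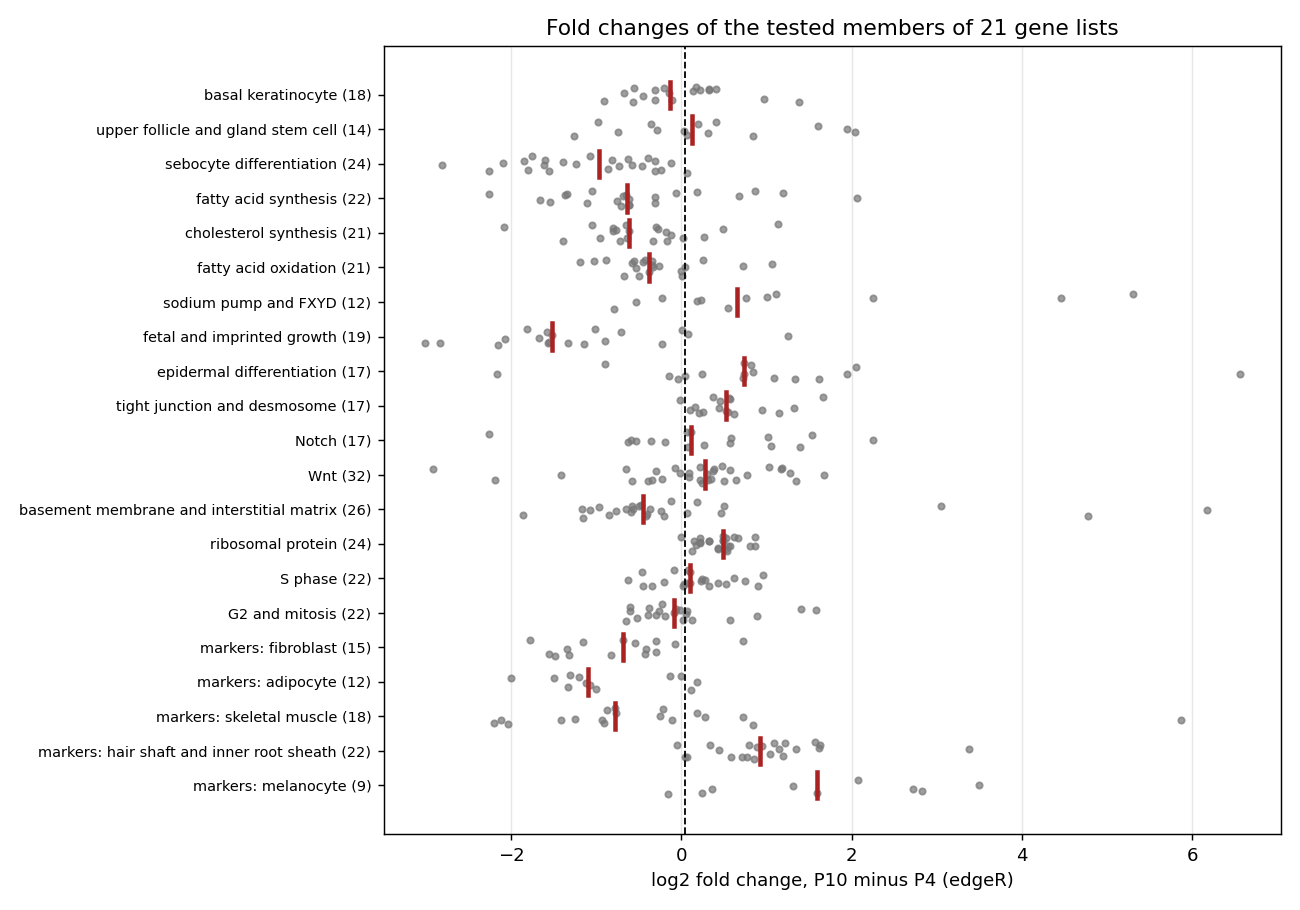
Each grey point is the log2 fold change, P10 minus P4, of 1 tested member of a gene list, with the number of members in brackets; red bars are list medians and the dashed line is the median of all 14185 genes, 0.05. Of the 21 lists drawn, the fetal and imprinted growth list has the lowest median, -1.52, and the melanocyte markers the highest, 1.59.

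Signalling genes are given by role. In the Notch pathway, in which a ligand on one cell cuts a receptor free on the next, a ligand and a receptor were higher at P10. The ligand Jag1 had 94.3, 37.8 and 39.02 CPM at P4 and 140.5, 193 and 162 CPM at P10 (1.53 ± 0.39 (SE)), and the receptor Notch1 had 314, 172 and 335 CPM at P4 and 542, 573 and 540.4 CPM at P10 (1.01 ± 0.29 (SE)). All P10 libraries were above all P4 libraries, and the P10 libraries of Notch1 were close together. The target Nrarp had 46.9, 40.5 and 39.2 CPM at P4 and 51.6, 71.03 and 67.4 CPM at P10 and was chosen after its values were seen, while the target Hes1 had 37.1, 68.2 and 44.9 CPM at P4 and 44.4, 61.7 and 51.2 CPM at P10 and overlapped. Rbpj, the DNA-binding partner of the receptor, had 65.4, 92.6 and 59.9 CPM at P4 and 51.9, 46.9 and 51.9 CPM at P10, lower without overlap, and Mfng, which adds sugars to the receptor, 6.63, 17.4 and 1.49 CPM at P4 and 2.76, 1.62 and 0.959 CPM at P10. Of 17 tested members 11 were positive, and 3 had an unadjusted p under 0.05, all higher (17.6%, against 3.44%). Separate ranges were held by 4 higher (23.5%, against 10.7%) and 2 lower (11.8%, against 6.73%). The median was 0.11 (0.002 without P10 library 2 to 0.347 without P4 library 2).

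In the hedgehog pathway the ligand Shh had 2.86, 0 and 5.62 CPM at P4 and 31.2, 9.86 and 39.04 CPM at P10, so that each P10 library was above each P4 library (3.23 ± 1.34 (SE), unadjusted p = 0.0421). The target Gli1 had 53.8, 12.4 and 30.7 CPM at P4 and 41.8, 34.1 and 41.4 CPM at P10 and overlapped, and the co-receptors Gas1 and Cdon were at -0.64 ± 0.35 (SE) and -0.55 ± 0.45 (SE). Hair matrix cells also make Shh, and the hair markers given below were spread more widely within P10 than between the ages. P10 library 2 had the largest hair share, 19.1% of its counts, and the lowest Shh value of the P10 libraries. The part of hair cells in the Shh values was not tested. The list of 14 tested genes had a median of 0.14 (-0.004 without P4 library 3 to 0.405 without P4 library 2). An unadjusted p under 0.05 was held by 1 higher (7.14%, against 3.44% of all genes).

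Wnt antagonists pointed in opposite directions. Sfrp2 was lower as given above, and its relative Sfrp1, an antagonist of epithelial and bulge cells, had 63.5, 37.9 and 12.5 CPM at P4 and 99.2, 106 and 84.9 CPM at P10, higher without overlap (1.35 ± 0.51 (SE)). Dkk2, an inhibitor of Wnt co-receptors, had 15.5, 202 and 38.9 CPM at P4 and 12.1, 9.75 and 34.5 CPM at P10, with P4 library 3 far above the rest. Among ligands Wnt5a had 50.7, 17.4 and 80.8 CPM at P4 and 74.4, 94.9 and 62.1 CPM at P10, among receptors Fzd10 had 40.8, 15.5 and 36.7 CPM at P4 and 58.7, 79.6 and 72.5 CPM at P10, and among targets Axin2 had 45.2, 54.1 and 73.6 CPM at P4 and 54.7, 73.4 and 72.5 CPM at P10. Of these 3, Fzd10 alone had separate ranges (1.18 ± 0.39 (SE)). Of 32 tested members 21 were positive with a median of 0.275 (0.14 without P10 library 2 to 0.405 without P4 library 4). In each direction 2 had an unadjusted p under 0.05 (6.25%, against 3.44% of all genes higher and 4.21% lower). Separate ranges were held by 4 higher and 2 lower (12.5% and 6.25%, against 10.7% and 6.73%), near the background.

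Receptors of the FGF family stood on opposite sides. Fgfr3, a receptor of epithelial cells, had 34.6, 2.36 and 20.3 CPM at P4 and 94.5, 120.2 and 98.7 CPM at P10, and Fgfr4 had 10.8, 19.6 and 36.5 CPM at P4 and 4.62, 1.56 and 2.397 CPM at P10, each separate between the ages and in opposite directions (2.45 ± 0.76 (SE) and -2.96 ± 0.76 (SE)). Fgfrl1, a receptor without a kinase domain, was lower with 50.3, 39.4 and 30.01 CPM at P4 and 29.6, 11.2 and 15.96 CPM at P10. The ligand Fgf1 had 6.21, 0.314 and 5.42 CPM at P4 and 20.3, 8.401 and 7.88 CPM at P10, higher without overlap. In the EGFR family the ligand Btc, betacellulin, had 0.669, 0.5500 and 2.03 CPM at P4 and 2.88, 7.001 and 20.7 CPM at P10 and the receptor Erbb3 137, 88.2 and 156 CPM at P4 and 188, 231 and 196 CPM at P10, both higher without overlap (3.22 ± 1.18 (SE) and 0.69 ± 0.26 (SE)). The ligand Areg was at -1.45 ± 1.61 (SE) and the feedback inhibitor Spry4 at -0.65 ± 0.49 (SE), and the target Dusp6 had 84.2, 15.2 and 65.99 CPM at P4 and 55.3, 71.6 and 62.1 CPM at P10. Among the 21 tested EGFR genes 6 had separate ranges, all higher (28.6%, against 10.7%), with a median of 0.10 (0.065 without P10 library 3 to 0.341 without P4 library 4). An unadjusted p under 0.05 was held by 2 of them, both higher (9.52%, against 3.44% of all genes). The FGF list of 12 had a median of 0.31 (-0.224 without P10 library 3 to 0.42 without P4 library 2). Igf1, the insulin-like growth factor made mainly by stroma, had 102, 148 and 56.8 CPM at P4 and 56.02, 36.7 and 50.1 CPM at P10, and Igfbp4, which binds it, 395, 307 and 302 CPM at P4 and 187, 186 and 252 CPM at P10, both lower without overlap, while Foxo3 and Mtor were at 0.60 ± 0.29 (SE) and 0.31 ± 0.20 (SE). The insulin and IGF list of 18 had a median of 0.047 (-0.05 without P4 library 4 to 0.119 without P4 library 2). It had 4 separate ranges lower (22.2%, against 6.73%) and 1 higher (5.56%, against 10.7%). The BMP and TGF-beta list of 28 had a median of 0.355 (0.071 without P10 library 2 to 0.491 without P4 library 2), with Smad5, a transducer of BMP signals, at 0.68 ± 0.25 (SE), Smad7 at 0.79 ± 0.36 (SE), and the receptors Tgfbr2 and Acvr1 at -0.74 ± 0.32 (SE) and -0.87 ± 0.37 (SE).

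Cell cycle genes showed few differences beyond the spread of the libraries. Mki67, the proliferation marker, had 968, 966 and 1069 CPM at P4 and 1119.6, 789 and 1233 CPM at P10 and overlapped (0.065 ± 0.26 (SE)). Myc had 23.2, 22.6 and 39.7 CPM at P4 and 37.6, 36.9 and 45.3 CPM at P10. Of 22 tested S phase genes 16 were positive with a median of 0.10 (-0.012 without P4 library 4 to 0.28 without P4 library 2). An unadjusted p under 0.05 was held by 1 lower (4.55%, against 4.21% of all genes). This was Lig1, a DNA ligase, with 89.9, 136 and 93.8 CPM at P4 and 68.7, 62.8 and 75.9 CPM at P10. The replication genes Mcm7, Cdt1 and Mcm4 were at 0.43 ± 0.26 (SE), 0.61 ± 0.52 (SE) and -0.35 ± 0.22 (SE). Of 22 tested genes of G2 and mitosis 8 were positive with a median of -0.08 (-0.145 without P10 library 3 to 0.002 without P10 library 2) and 0 had an unadjusted p under 0.05. Ccnb2, a mitotic cyclin, had 21.5, 12.3 and 3.86 CPM at P4 and 35.4, 26.01 and 38.01 CPM at P10, and Cenpe, a kinetochore motor, 107, 224 and 182 CPM at P4 and 96.6, 94.2 and 146 CPM at P10. Ccnb1 and Ccna2 were at 0.89 ± 0.56 (SE) and -0.37 ± 0.22 (SE). A p that misses the threshold does not show equal levels.

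Basement membrane collagens differed by chain. Type IV collagen is built of several kinds of chain, of which alpha-3 and alpha-4 occur in specialised membranes beside the general alpha-1 and alpha-2. Col4a4 had 1.095, 0 and 1.02 CPM at P4 and 21.2, 20.2 and 17.7 CPM at P10, and Col4a3, its head-to-head neighbour, 0.243, 0 and 0 CPM at P4 and 12.2, 4.31 and 3.42 CPM at P10. Both were near 0 in every P4 library, P4 library 2 included, and present in every P10 library (4.78 ± 1.24 (SE) and 6.17 ± 1.86 (SE)). The general chains Col4a1 and Col4a2 had 1658, 1719.8 and 1078 CPM at P4 and 1113, 769 and 1134 CPM at P10 and 1064, 959 and 727 CPM at P4 and 721, 497 and 739 CPM at P10, with P10 library 2 lowest and overlapping ranges. These were chosen after their values were seen. Egfl6, a matrix protein of the follicle epithelium, had 67.00, 17.8 and 45.1 CPM at P4 and 11.2, 7.97 and 16.7 CPM at P10, and Fbln2, a fibulin of the dermis, 278, 406 and 223 CPM at P4 and 135, 89.8 and 179.6 CPM at P10, both lower without overlap (-1.86 ± 0.55 (SE) and -1.16 ± 0.34 (SE)). Of 26 tested members 19 were negative with a median of -0.445. An unadjusted p under 0.05 was held by 4 lower (15.4%, against 4.21% of all genes) and 2 higher (7.69%, against 3.44%). Separate ranges were held by 4 lower (15.4%, against 6.73%) and 3 higher (11.5%, against 10.7%).

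Genes of the upper epidermal layers and of cell junctions had mostly higher values at P10. Of 17 tested epidermal differentiation genes 13 were positive with a median of 0.74 (0.484 without P10 library 2 to 1.126 without P4 library 3). Of these genes 4 had an unadjusted p under 0.05, all higher (23.5%, against 3.44%), and 4 had separate ranges, all higher (23.5%, against 10.7%). Sprr1b, a cornified envelope precursor, had 1.095, 0 and 0 CPM at P4 and 12.6, 94.8 and 2.05 CPM at P10, and Tgm3, which cross-links envelopes and hair proteins, 35.1, 38.3 and 51.2 CPM at P4 and 57.8, 358 and 99.6 CPM at P10. P10 library 2, the library with the largest hair share, was by far the highest in both. Krt1, the keratin of suprabasal cells, ranged from 1.35 CPM in P10 library 1 to 1735 in P4 library 3, and Sbsn was at -0.90 ± 0.49 (SE). Of 17 tested junction genes 16 were positive with a median of 0.52 (0.256 without P10 library 2 to 0.678 without P10 library 1), and 5 had separate ranges, all higher (29.4%, against 10.7%). An unadjusted p under 0.05 was held by 1 higher (5.88%, against 3.44%). Dsg3, a desmosomal cadherin of basal layers, had 89.1, 86.97 and 40.99 CPM at P4 and 119, 180.4 and 182 CPM at P10 (1.15 ± 0.35 (SE)), and Jup, plakoglobin, 460.3, 363 and 517 CPM at P4 and 497, 806 and 693 CPM at P10. The ranges of Jup overlapped between the ages. Ocln, of tight junctions, was the negative member at -0.015 ± 0.33 (SE). Of 17 tested retinoid genes Stra6, the receptor that takes up vitamin A, had 11.7, 0.157 and 5.89 CPM at P4 and 42.2, 124 and 37.9 CPM at P10 and Dhrs9, a retinol dehydrogenase, 8.398, 14.8 and 3.12 CPM at P4 and 18.6, 43.9 and 27.9 CPM at P10, both higher without overlap. The binding protein Crabp2 had 46.3, 94.8 and 114 CPM at P4 and 30.1, 48.3 and 46.5 CPM at P10, and the degrading enzyme Cyp26b1 was at -0.75 ± 0.58 (SE). The median of that list was 0.18 (0.043 without P4 library 3 to 0.591 without P4 library 4). An unadjusted p under 0.05 was held by 4 of 17 higher (23.5%, against 3.44%) and 1 lower (5.88%, against 4.21%).

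Transcripts of tissue outside the gland were present in every library, and some lists leaned with age. Fibroblast markers were lower at P10 in 14 of 15 members with a median of -0.69. Of these markers 7 had an unadjusted p under 0.05, all lower (46.7%, against 4.21%), and 6 had separate ranges, all lower (40%, against 6.73%). Pdgfra and Lum are given above and Fap, another fibroblast gene, was at 0.72 ± 1.46 (SE). The summed share of the list was 4.75, 5.21 and 2.45% at P4 and 2.58, 1.76 and 4.44% at P10. These shares overlapped. Adipocyte markers were lower in 10 of 12 members with a median of -1.095, and 8 had an unadjusted p under 0.05, all lower (66.7%, against 4.21%). Cd36, the fatty acid transporter, had 272, 358 and 295 CPM at P4 and 169, 77.4 and 123 CPM at P10, separate between the ages, and Plin1 is given above. Lipe and Cfd were positive at 0.19 ± 0.49 (SE) and 0.12 ± 0.33 (SE). The list took 0.326, 0.299 and 0.201% of counts at P4 and 0.190, 0.0951 and 0.146% at P10, without overlap. Fat cells and sebocytes share lipid genes, and unlike the sebocyte list the adipocyte list kept its lower median, -1.19, with P4 library 2 alone at P4. Mast cell, pericyte and endothelial lists had medians of -1.56 (-2.112 without P4 library 4 to -1.17 without P4 library 3), -0.65 (-0.919 without P4 library 4 to -0.275 without P4 library 3) and -0.53 (-0.927 without P4 library 4 to -0.168 without P4 library 3). An unadjusted p under 0.05 was held by 0, 1 and 0 members. The 1 pericyte member was lower (11.1% of its list, against 4.21% of all genes). By limma-voom with quality weights the mast cell median was 0.037. The part of these cells in the lower genes above was not tested.

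**Figure D4:**
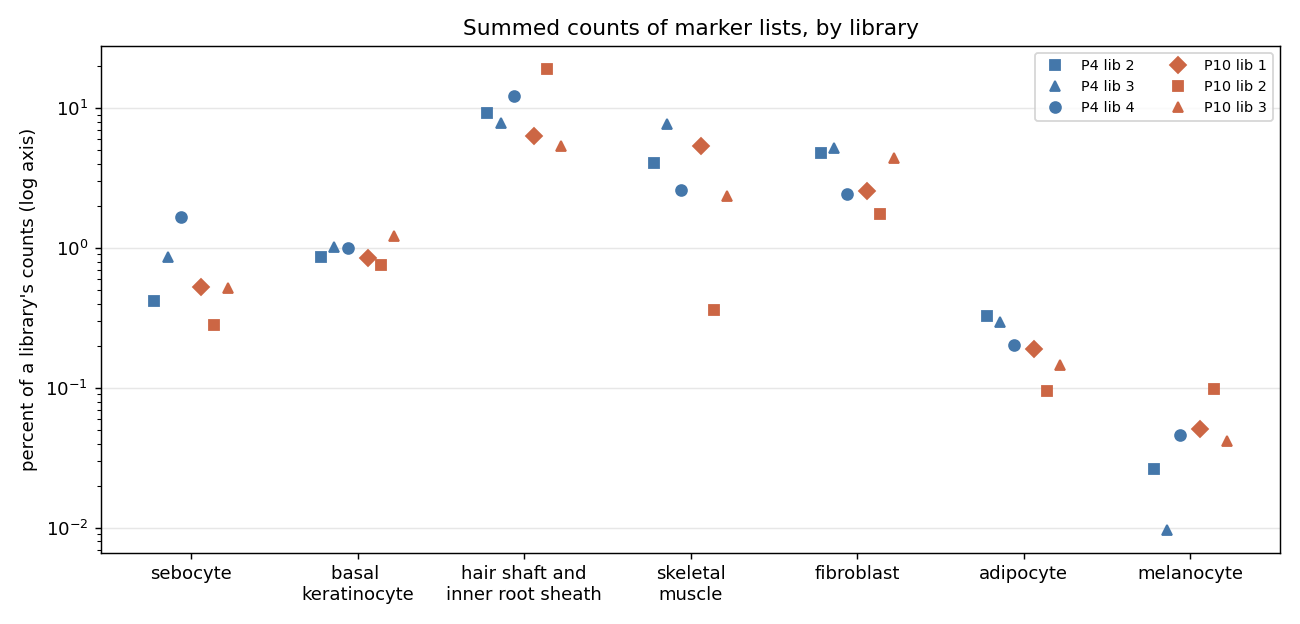
Points give the summed counts of 7 gene lists as a percent of each library's counts on a log axis, blue for P4 and orange for P10. The adipocyte list is the one list in which the ages are separate, 0.201 to 0.326% at P4 and 0.0951 to 0.190% at P10, and P10 library 2 stands apart with the highest hair share, 19.1%, and the lowest muscle share, 0.360%.

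Skeletal muscle transcripts differed in their mix of myosins. Muscle fibres replace neonatal myosin heavy chains with adult ones in the first weeks of life. Of the counts of 5 heavy chain genes, Myh8, the neonatal chain, made up 75.8, 79.1 and 85.1% in the P4 libraries and 47.4, 23.6 and 40.7% in the P10 libraries. Myh1, the adult IIX chain, made up 10.6, 8.60 and 6.24% at P4 and 34.9, 49.3 and 40.0% at P10. Myh3, the embryonic chain, made up 1.48 to 3.02% at P4 and 0.318 to 1.16% at P10. The ages did not overlap in any of these 3 shares, and P10 library 2, with only 27061 counts of the 5 genes, was on the same side as the other P10 libraries. The shares were chosen after their values were seen, are not corrected for gene length and carry no test. In CPM, Pvalb, a calcium buffer of fast adult fibres, had 1.58, 0 and 0 CPM at P4 and 71.98, 9.101 and 15.00 CPM at P10 (5.86 ± 1.71 (SE)), and Tnnc2, fast troponin C, 1584, 5865 and 1403 CPM at P4 and 1334, 134 and 700.1 CPM at P10. The muscle list of 18 had a median of -0.775 (-1.79 without P10 library 1 to -0.224 without P4 library 3). In each direction 1 member had an unadjusted p under 0.05 (5.56%, against 3.44% of all genes higher and 4.21% lower).

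**Figure D5:**
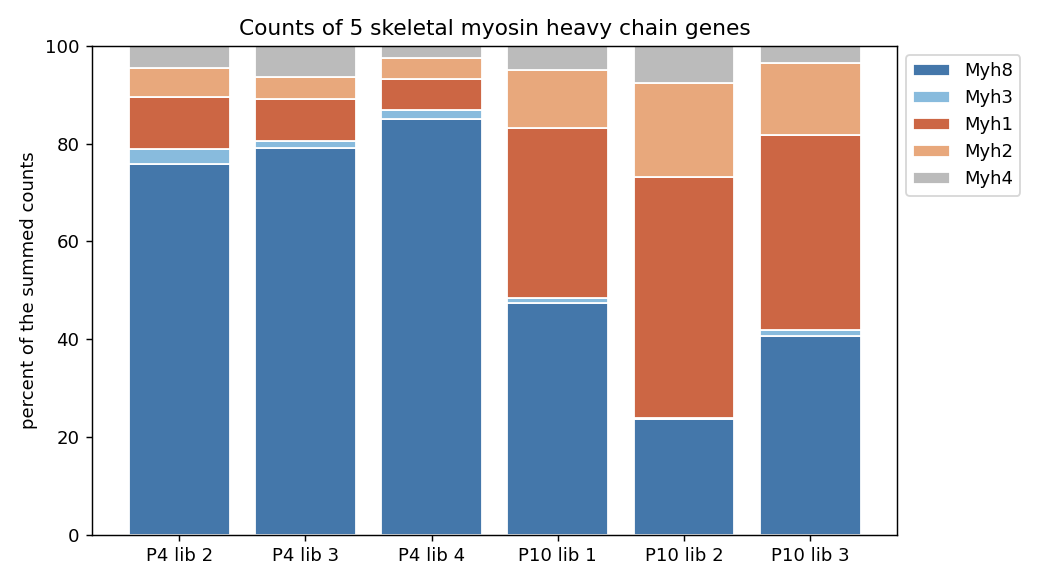
Stacked bars split the summed counts of 5 skeletal myosin heavy chain genes in each library into percent per gene. Myh8 takes 75.8 to 85.1% in the 3 P4 libraries and 23.6 to 47.4% in the 3 P10 libraries, with Myh1 at 34.9 to 49.3% at P10.

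Hair and pigment markers depended on the library. Of 22 hair shaft and inner root sheath genes 21 were positive with a median of 0.92 (-0.055 without P10 library 2 to 1.293 without P4 library 2). An unadjusted p under 0.05 was held by only 1 higher (4.55%, against 3.44% of all genes). Krt35, a hair cortex keratin, had 13.4, 0.0786 and 64.5 CPM at P4 and 125, 533 and 154 CPM at P10, and Msx2, a homeobox gene of the hair matrix, 48.8, 36.4 and 81.4 CPM at P4 and 73.6, 144 and 82.9 CPM at P10. Tchh, trichohyalin of the inner root sheath, took between 3.85 and 14.8% of counts and was at -0.053 ± 0.68 (SE). In the outer root sheath and bulge list of 9, Krt6a and Krt75 had positive values of 1.20 ± 0.46 (SE) and 1.07 ± 0.59 (SE), and Nfatc1, a regulator of bulge stem cells, had 81.9, 123 and 81.03 CPM at P4 and 53.2, 27.6 and 70.4 CPM at P10, lower without overlap. Melanocyte genes were positive in 8 of 9 members with a median of 1.59 (0.696 without P10 library 2 to 2.687 without P4 library 4). Tyrp1 and Tyr, enzymes of melanin synthesis, had 7.91, 0 and 11.7 CPM at P4 and 49.7, 133 and 37.8 CPM at P10 and 5.72, 0 and 18.2 CPM at P4 and 36.9, 94.7 and 25.8 CPM at P10, at 0 in P4 library 3 and higher in every P10 library than in any P4 library. Mitf, their regulator, was at -0.16 ± 0.38 (SE). Pigment cells sit in the hair bulb, and P10 library 2 was highest for both the melanin genes and the hair list.

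The list of macrophage and dendritic cell markers had 4 positive and 7 negative members of 11, with a median of -0.19 (-0.674 without P10 library 3 to 0.088 without P10 library 2). Its positive members of smallest p were Cd207 and H2-Ab1. Cd207, langerin of the epidermal Langerhans cells, had no count at P4 and 0.641, 2.37 and 6.301 CPM at P10. Its pooled level at P10 was 43.8-fold higher than a floor of 3 counts over the P4 libraries, which allows for counting error only. H2-Ab1, a class II antigen-presenting chain, had 4.38, 5.42 and 1.02 CPM at P4 and 16.1, 33.9 and 47.2 CPM at P10, separate between the ages (3.17 ± 0.75 (SE)). The macrophage genes Mrc1 and Cd68 had 133, 99.9 and 38.8 CPM at P4 and 61.02, 34.6 and 49.5 CPM at P10 and 8.58, 11.9 and 22.2 CPM at P4 and 6.54, 3.99 and 5.55 CPM at P10, overlapping for Mrc1 and lower without overlap for Cd68. In this list 3 members had an unadjusted p under 0.05, all higher (27.3%, against 3.44% of all genes). Among nerve markers Cdh19, of Schwann cell precursors, had 0.304, 0 and 0 CPM at P4 and 6.86, 3.18 and 8.698 CPM at P10, and Ncam1 122, 93.02 and 73.4 CPM at P4 and 33.8, 33.7 and 80.1 CPM at P10.

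Genes of protein synthesis and energy metabolism leaned by small amounts in 1 direction each. Ribosomal protein genes were positive in 23 of 24 members with a median of 0.49 (0.258 without P4 library 3 to 0.641 without P4 library 2), and 10 had separate ranges, all higher (41.7%, against 10.7%). An unadjusted p under 0.05 was held by 2, both higher (8.33%, against 3.44% of all genes). Rps3 had 378, 189 and 228 CPM at P4 and 434, 523 and 436 CPM at P10, and Rpl10 294, 148 and 134 CPM at P4 and 357, 356 and 338 CPM at P10. P4 library 2 stood between the ages in both, and with it alone at P4 the median was 0.17. Nuclear genes of oxidative phosphorylation had a median of -0.25 (-0.388 without P10 library 1 to -0.162 without P10 library 2). An unadjusted p under 0.05 was held by 4 of 24, all lower (16.7%, against 4.21% of all genes). They were led by Cox7b of complex IV with 125, 196 and 175 CPM at P4 and 95.8, 83.04 and 72.5 CPM at P10, and by Cox6c at -0.66 ± 0.22 (SE). Glycolysis genes had a median of -0.32, with 4 of 19 at an unadjusted p under 0.05, all lower (21.1%, against 4.21%). Pfkfb3, which makes the activator of phosphofructokinase, had 30.7, 38.1 and 30.3 CPM at P4 and 16.2, 16.9 and 14.04 CPM at P10, tight at both ages (-1.07 ± 0.34 (SE)), and Aldoa, an aldolase, 947, 1502 and 862 CPM at P4 and 739, 685 and 566 CPM at P10. Genes of both pathways are abundant in muscle, whose share is given above, and its part in them was not tested. Immediate early and stress genes, which mark slow freezing or handling, had a median of 0.055 (-0.044 without P10 library 2 to 0.272 without P4 library 4) with 0 of 20 at an unadjusted p under 0.05. Epithelial defence genes had a median of 0.38 (0.088 without P4 library 2 to 0.597 without P10 library 3) over 8 tested of 17 listed. Lymphocyte, erythroid, sweat and mammary duct markers had 4, 2 and 6 tested members.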

How the data were processed

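RNA was measured by sequencing in 6 laser-captured libraries, 3 from P4 and 3 from P10 mice, grouped by their labels. The authors deposited raw counts per gene symbol. Reads had been trimmed with Trimmomatic 0.32, aligned with STAR to mm10 and counted with featureCounts 1.5.1, per the submitters' processing notes. For the STAR version and the strand setting, nothing is given in the sources used here, so reads of overlapping or antisense genes may not be told apart. From these counts, 14185 symbols with at least 10 counts in at least 3 libraries were fitted with edgeR 4.0.16 (R 4.3.3) in its quasi-likelihood test with TMM scaling, with Benjamini-Hochberg adjustment over all of them and a threshold of 0.05. DESeq2 1.42.0 and limma 3.58.1 served as alternatives, beside other scalings, filters, left-out libraries and a replicate block. SE is the log2 fold change divided by the root of the F statistic.

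The members and gene lists were chosen with earlier results of these data known. Genes are named by a fixed rule. It takes the 10 of smallest p in each direction that have separate ranges. These must average 10 CPM or more at the age where they are higher. It adds 2 members of smallest p in each direction of each list described, and members of signalling lists by role. A fixed set completes it, which holds gland genes and others, among them Plagl1, Mest and Cpa4. It also holds Atp1b1 and Plb1, the 2 genes of smallest p in this comparison. Some genes that the rule names are not reported here. Other genes are said to be chosen after their values were seen. Coordinates and promoter windows come from RefSeq for GRCm38.p6, in which 24407 of the 24972 symbols matched. The P30 libraries entered only 1 alternative fit. Totals of 13451174 to 20595681 counts limit the precision of genes with few counts. No library was dropped, and counting intervals would cover counting error only.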

Additional observations from a re-analysis of the deposited data

How the results depend on the processing

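The edgeR counts of 0 genes in each direction depended on the tool and the filter: DESeq2 called 66 higher and 78 lower, no filter on low counts gave 12 and 14, and leaving out single libraries gave 0 to 1 higher and 0 lower; edgeR's other scalings, limma-voom and the fit of all 9 libraries gave 0. The replicate block also gave 0 genes in 6 and in 9 libraries, with smallest adjusted p of 0.197 and 0.412. P4 library 4 shares its number with no other library, so in both block fits it adds nothing to the age difference. In the fit of 6 libraries the same holds for P10 library 1. Deviations of libraries sharing a number correlated at -0.028 and 0.07, and the labels do not say that a number pairs libraries. List medians changed sign most often with P4 library 2 alone at P4, to -0.145 for hedgehog, -0.01 for EGFR, -0.176 for insulin and IGF, -0.063 for FGF, -0.039 for S phase, -0.123 for epithelial defence, -0.154 for outer root sheath and -0.205 for Schwann cell genes, beside the lists named in the results. Log2 fold changes of named genes that changed sign are given next, and the cause was not tested. With P4 library 2 alone at P4 they were 0.19 for Acaca, 0.02168 for Acvr1, 0.0642 for Awat1, 0.06214 for Cenpe, -0.18 for Cfd, 0.28 for Dkk2, -0.42 for Dusp6, -0.19 for Echs1, -0.26 for Fap, 0.01249 for Far2, 0.009648 for Fasn, 0.17 for Fst, 0.16 for Gata6, -0.46 for Gli1, 0.07181 for Hmgcs1, 0.36 for Itgb4, 3.10 for Krt1, 0.55 for Krt14, 0.18 for Krt79, -0.55 for Lipe, -0.05765 for Lrig1, 0.65 for Ocln, 0.39 for Sbsn, 0.01655 for Scd1, -1.17 for Sgce, 0.20 for Soat1, -0.12 for Srebf2 and 0.22 for Tchh. With the replicate block in 6 libraries they were 0.25 for Acaca, 2.34 for Areg, -0.34 for Cfd, 0.02386 for Gata6, 0.32 for Hmgcs1, 0.03854 for Itgb4, 0.26 for Krt14, 0.33 for Krt15, -0.17 for Lipe, 0.05476 for Mitf, -0.50 for Myh1, 0.15 for Ocln, 0.01382 for Spry4 and 0.06182 for Tchh. With the replicate block in 9 libraries they were 0.26 for Acaca, 2.08 for Areg, -0.34 for Cfd, 0.03786 for Fst, 0.82 for Gata6, 0.31 for Hmgcs1, 0.17 for Krt14, 0.50 for Krt15, -0.0753 for Lipe, -0.05285 for Mki67, -0.27 for Myh1, 0.11 for Ocln and 0.005738 for Sbsn. With limma-voom they were 0.62 for Areg and 0.09477 for Ocln. With limma-voom and quality weights they were 0.52 for Ddx3y, -0.0689 for Lrig1, 0.22 for Ocln and -0.04359 for Prdm1. With library totals alone they were 0.01034 for Fads1 and 0.07078 for Ocln. With upper quartile scaling they were 0.02354 for Ocln. Leaving out 1 library at a time, they ranged from -0.56 to 0.28 for Acaca, -0.08108 to 0.39 for Cebpb, -0.12 to 0.32 for Cfd, -0.99 to 0.34 for Ddx3y, -0.25 to 0.64 for Dusp6, -0.25 to 0.24 for Fads1, -0.11 to 0.85 for Gli1, -0.13 to 0.35 for Hes1, -0.59 to 0.22 for Hmgcs1, -0.32 to 0.15 for Itgb4, -4.02 to 2.02 for Krt1, -0.48 to 0.10 for Krt14, -0.81 to 0.17 for Krt15, -0.17 to 0.75 for Lipe, -0.23 to 0.22 for Lrig1, -0.72 to 0.09001 for Mitf, -0.07044 to 0.23 for Mki67, -0.29 to 0.33 for Ocln, -0.45 to 0.78 for Prdm1, -0.51 to 1.73 for Sgce and -1.09 to 0.30 for Tchh. P4 libraries 3 and 4 detected fewer genes than the others at like total counts, which limits what can be seen there.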

Other observations

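Hair shaft protein genes outside the fixed lists had mostly positive fold changes, and were highest in 1 library. Of 54 keratin-associated protein genes in the files, 51 were tested, 46 had a positive fold change and the median log2 fold change was 2.10. An unadjusted p under 0.05 was held by 22, all higher (43.1%, against 3.44% of all genes). Separate ranges were held by 5, all higher (9.8%, against 10.7% of all genes), which is near the background. The family was chosen after its values were seen. Krtap6-2 had 12.7, 30.6 and 16.3 CPM at P4 and 105, 477 and 28.01 CPM at P10, and Krtap19-4 6.76, 1.41 and 3.52 CPM at P4 and 33.4, 195 and 8.698 CPM at P10. P10 library 2, which also has the largest share of hair markers, was highest in each, and P10 library 3 was near P4. The family took 0.220, 0.112 and 0.204% of counts in the P4 libraries and 0.398, 1.71 and 0.162% in the P10 libraries.

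Genes of ion and lipid transport, chosen after their values were seen, were higher in all 3 P10 libraries than in any P4 library. Atp12a, the non-gastric proton-potassium pump, which uses a beta subunit of the kind Atp1b1 encodes, had 1.03, 0 and 14.2 CPM at P4 and 489, 317 and 459.9 CPM at P10. Car6, a secreted carbonic anhydrase, had 13.5, 0 and 8.54 CPM at P4 and 431, 305 and 449 CPM at P10. Neither overlapped, and the P10 libraries were alike within each gene. Trpv6, an epithelial calcium channel, had 13.1, 8.01 and 7.93 CPM at P4 and 35.7, 27.1 and 40.5 CPM at P10. Abca1, which exports cholesterol from cells, had 113, 152 and 167 CPM at P4 and 374, 256 and 402 CPM at P10. Of 12 tested members of the ABCA transporter family 11 were positive, and the median was 0.66. An unadjusted p under 0.05 was held by 5, all higher (41.7%, against 3.44% of all genes).

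Stromal genes of the growing dermis, also chosen after their values were seen, were lower at P10 without overlap, P4 library 2 included. Vim, the filament protein of mesenchymal cells, had 1416, 1774 and 975 CPM at P4 and 563, 392 and 617 CPM at P10. Vcan, the proteoglycan versican, had 611, 663 and 485 CPM at P4 and 164, 137 and 276 CPM at P10, and Fbn2, the fibrillin of developing tissue, 363, 236 and 242 CPM at P4 and 78.5, 43.5 and 123 CPM at P10. Steroid and lipid enzymes of the gland followed the grading of the sebocyte list within P4. Hsd3b6, a steroid dehydrogenase, had 67.00, 187 and 506 CPM at P4 and 49.6, 10.8 and 46.8 CPM at P10, and Aox4, an aldehyde oxidase, 123, 269 and 522 CPM at P4 and 63.6, 26.8 and 34.4 CPM at P10. The microRNA gene Mir6240 had 1.095, 0.707 and 0.407 CPM at P4 and 126, 208 and 1.23 CPM at P10. Only P10 libraries 1 and 2 were high, and it passed the edgeR test when P10 library 3 was left out.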
